A study of Mus musculus with 6 samples.

Results

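The histone genes of the replication clusters were compared between mouse bone marrow stromal cells given GCA and cells given PBS. Members were all protein-coding genes whose GENCODE M21 symbol starts with Hist1h, Hist2h, Hist3h or Hist4h. GENCODE annotates 67 such genes, of which 51 were among the 27263 genes listed in the files, and 16 were not analysed here. The listed members comprised 5 genes of the linker histone H1, 8 of H2A, 16 of H2B, 10 of H3 and 12 of H4. By position, 45 lay in Hist1 on chromosome 13, 3 in Hist2 on chromosome 3, 2 in Hist3 on chromosome 11 and 1 in Hist4.

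Histones package DNA: H2A, H2B, H3 and H4 form the core of the nucleosome and H1 binds the linker DNA between nucleosomes. The clustered genes are known for being transcribed mainly in S phase, when new DNA needs new histones. They mostly lack introns, and their mRNAs usually end after a conserved stem-loop instead of a poly(A) tail. The stem-loop is bound by SLBP, and some of these genes also make polyadenylated transcripts, mainly in non-dividing or differentiated cells. The variant histones, encoded elsewhere, mostly give ordinary polyadenylated mRNAs, many of them outside S phase as well.

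All 6 libraries came from primary marrow stromal cells of C57BL/6 mice, taken from tibia and femur by a Sca-1+ CD29+ CD45- CD11b- sort and grown with 10% fetal bovine serum. In the treated group, 3 libraries came from cells given rGCA at 50 nM for 3 days, and in the control group 3 came from cells given PBS for the same time. From knowledge of the study, GCA is read here as grancalcin, which binds calcium and is made by myeloid cells. The labels do not say whether the replicates were separate animals or cultures, and each p-value therefore reflects no more than the spread among these libraries, possibly technical.

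Levels are FPKM, in which the fragments of a gene are divided by its exon length and by the library total. The totals behind them ran from 17543509 to 18645932 fragments, a 1.06-fold range, and 1 fragment in 500 bases of exon was worth 0.107 to 0.114 FPKM. Across genes, which are no independent replicates, log values of libraries correlated at 0.989 to 0.994 inside a group and at 0.981 to 0.985 from one group to the other. All 12 stromal markers were listed, and their summed level was 3419.1 to 3670.5 FPKM with PBS and 2915.4 to 3147.3 with GCA. All 15 macrophage markers were present too, none at 0, at a summed 20009.1 to 22285.3 FPKM with PBS and 17685.7 to 18718.6 with GCA. Lyz2 alone averaged 13518 FPKM with PBS and 8879 with GCA, so this sum mostly follows 1 gene. Estimated differences were above 0 for 10 of the 15 macrophage markers and below 0 for 5. Of the tested markers, 4 of 11 stromal ones fell and 0 rose, while 7 of 15 macrophage ones rose and 1, Lyz2, fell (limma, adjusted p under 0.05), where 11.5% of all genes tested rose and 6.43% fell. The call of Lyz2 was lost with quantile normalization (adjusted p = 0.438). The macrophage markers included Ptprc and Itgam, which encode the CD45 and CD11b the sort selected against. Ptprc was at 12.6 ± 0.59 FPKM with PBS (SD, n = 3) and 13.4 ± 0.89 with GCA (SD, n = 3). Itgam was at 39.3 ± 3.3 FPKM with PBS and 30.5 ± 9.0 with GCA (SD, n = 3 each). Neither was called, and both had overlapping groups. Of 14 markers of other blood and vessel cells 9 were listed, 7 of them below 1 FPKM, with a sum of 4.1 to 5.7 FPKM with PBS and 2.6 to 6.0 with GCA. In bulk RNA, fewer cells of a type and less RNA per cell cannot be told apart, and the part of the cell mixture in the histone values was not tested.

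The letters of the stem-loop were found in the annotated transcripts of 37 of the 51 listed members (72.5%), against 338 of 21834 other protein-coding genes (1.55%). The search used GGNNNTTNTNAGNNCC on the sense strand of GENCODE M21 transcripts, where N is any base. In all 37 the 6 bases at each end of the match could pair, part of which the search letters set in advance. The form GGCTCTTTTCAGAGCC was the most frequent, in 20 genes, followed by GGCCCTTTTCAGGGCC in 7. The stem-loops of the members the results turn on follow, 5′ to 3′ on the gene's strand, with the matched letters in capitals.
Hist1h2ab: acaaaGGCTCTTTTCAGAGCCacccacatc
Hist1h4i: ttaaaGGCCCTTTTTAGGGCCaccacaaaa
Hist2h3c2: acaaaGGCTCTTTTCAGAGCCaccacagct
Hist1h4m: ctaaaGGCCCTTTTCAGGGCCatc
Hist1h3b: ccaaaGGCTCTTTTCAGAGCCacccacagt
Hist1h1c: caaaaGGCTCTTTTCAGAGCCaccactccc
The matched letters are identical in Hist1h2ab, Hist2h3c2, Hist1h3b and Hist1h1c, while Hist1h4i and Hist1h4m share the other stem. The transcript of Hist1h4m ends 3 bases after the match, and that of Hist1h1c runs on for 840 bases.

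Of the 51 listed members, 14 averaged at least 1 FPKM across all 6 libraries and were tested, and 37 lay below that filter. With GCA, 3 of the 14 fell past an adjusted p of 0.05 (limma) and 0 rose, while over all 11984 genes tested 17.9% changed, 6.43% lower and 11.5% higher. The 3 were Hist1h4i, Hist1h2ab and Hist2h3c2. An estimated difference below 0 was found for 12 of the 14 (85.7%), against 48.4% of all genes tested, although Hist3h2a, at −0.00, changed sign without PBS replicate 1, GCA replicate 1 or GCA replicate 2. The median difference was −0.29 on the log2(FPKM + 1) scale, against 0.01 for all genes. At an unadjusted p under 0.05 there were 6 members (42.9%), beside 32.8% of all genes tested. All 3 GCA values lay below all 3 PBS values for 5 of the 14, as in 16.8% of all genes tested, and above them for 1, as in 21.6%. Differences below are on the log2(FPKM + 1) scale, where the change of a low gene appears smaller than it is.

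**Figure D1:**
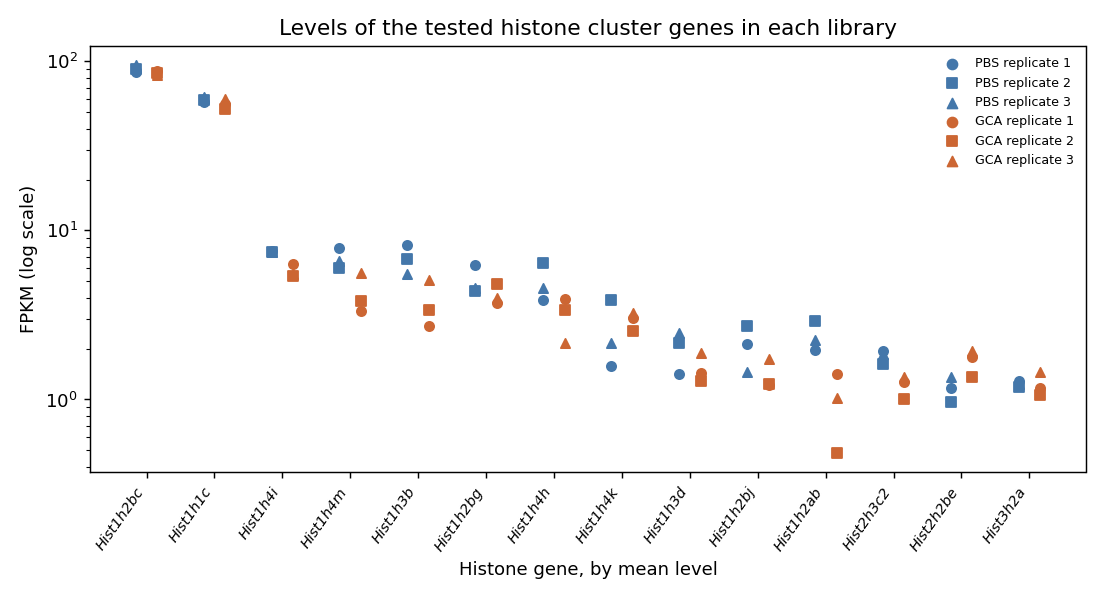
FPKM (log axis) of the 14 tested histone genes, ordered by mean level, with one point per library: blue for PBS, orange for GCA, and a symbol for each replicate number. Hist1h2bc and Hist1h1c sit above 50 FPKM in every library, and the other 12 between 0.48 and 8.23 FPKM.

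The only H1 gene above the filter was Hist1h1c (chr13:23738808-23740367, + strand), which encodes a linker histone. Its level was 57.6, 59.1 and 61.9 FPKM in the PBS libraries, in replicate order, and 55.9, 52.0 and 60.3 in the GCA libraries. The groups overlapped, and GCA replicate 2 was the lowest library. The difference was −0.09 (95% interval −0.23 to 0.05), with an adjusted p of 0.362 (limma). It rested on 1423 to 1753 fragments per library, and no 150-base window of its transcript is shared with another gene.

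Among H2A genes, Hist1h2ab (chr13:23751126-23751598, + strand) fell with GCA. It was 1.97, 2.91 and 2.25 FPKM with PBS and 1.42, 0.482 and 1.02 with GCA. All GCA values lay below all PBS values, and the lowest was GCA replicate 2. The counts behind them were small, 17 to 25 fragments with PBS and 4 to 12 with GCA. The mean fell from 2.38 ± 0.48 to 0.97 ± 0.47 FPKM (SD, n = 3 each), a difference of −0.79 (SE 0.19, adjusted p = 0.0263, limma). Without PBS replicate 2 the adjusted p was 0.0808, without PBS replicate 3 it was 0.0756, and without GCA replicate 3 it was 0.0669; with a filter of 0.1 FPKM it was 0.0521 and with none 0.089. Of its 150-base windows, 45.1% are identical in other genes, nearly all H2A genes, and it overlaps the short RNA Gm44484 on the opposite strand by 138 bases. The sources used here do not say how the authors assigned shared or opposite-strand reads. The other tested H2A gene, Hist3h2a (chr11:58954685-58956830, + strand), was 1.28, 1.18 and 1.23 FPKM with PBS and 1.17, 1.06 and 1.45 with GCA. Those groups overlapped and the difference was −0.00 (95% interval −0.21 to 0.20, adjusted p = 0.984); its transcript overlaps Trim17 on the same strand by 708 bases.

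The 4 tested H2B genes gave no call. Hist1h2bc (chr13:23684199-23692908, + strand), the most abundant member and the only tested one with 2 exons, was 86.9, 90.2 and 94.8 FPKM with PBS and 88.0, 85.3 and 82.8 with GCA. The highest values were in PBS, but the groups overlapped, and the difference was −0.09 (95% interval −0.20 to 0.03, adjusted p = 0.277). Hist1h2bg (chr13:23571396-23572013, + strand) was 6.21, 4.37 and 4.54 FPKM with PBS and 3.72, 4.80 and 3.99 with GCA, with an adjusted p of 0.282. Hist1h2bj (chr13:22043214-22043676, + strand) was 2.13, 2.74 and 1.45 FPKM with PBS and 1.21, 1.23 and 1.74 with GCA (adjusted p = 0.162). Both had overlapping groups. Windows shared with other genes made up 39.0% for Hist1h2bg, 22.3% for Hist1h2bj and 17.4% for Hist1h2bc. Without PBS replicate 3 the adjusted p of Hist1h2bj was 0.0499 (limma), and with any other single library left out it was 0.126 to 0.378. Hist2h2be (chr3:96221119-96223738, + strand) went the other way, at 1.17, 0.967 and 1.35 FPKM with PBS and 1.77, 1.35 and 1.94 with GCA. It was the only tested member with every GCA value above every PBS value, by a margin of 1.3489 against 1.3487 FPKM at the closest. Its difference was 0.31 (SE 0.11) with an adjusted p of 0.0893 (limma). Without GCA replicate 2 the adjusted p was 0.0357, and with any other single library left out it was 0.106 to 0.24. None of its windows is shared with another gene.

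Of 3 tested H3 genes, Hist2h3c2 (chr3:96238108-96239127, − strand) fell, at 1.94, 1.62 and 1.87 FPKM with PBS and 1.26, 1.01 and 1.37 with GCA. The groups did not overlap, on 30 to 36 fragments with PBS and 18 to 26 with GCA. The difference was −0.35 (SE 0.09, adjusted p = 0.0356). The call was lost when any single library but GCA replicate 3 was left out, with adjusted p from 0.0555 without PBS replicate 2 to 0.114 without PBS replicate 3. It was also lost with limma-voom on the recovered fragments (adjusted p = 0.139), with a filter of 0.1 FPKM (0.0582) and with no filter (0.101). Its windows are shared with other genes for 59.4%, among them Hist2h3b and Hist2h3c1. Hist1h3b (chr13:23752267-23752886, + strand) was 8.23, 6.75 and 5.52 FPKM with PBS and 2.71, 3.40 and 5.10 with GCA. Every GCA value was below every PBS value, with GCA replicate 3 close to the lowest PBS library. Its difference of −0.74 (95% interval −1.26 to −0.22) had an adjusted p of 0.0634 (limma). This was 0.0152 without GCA replicate 3, and 0.0123 with limma-voom on fragments. With any other single library left out it was 0.0775 to 0.166, and with the replicate block 0.194. Shared windows made up 49.5% of those of Hist1h3b and 16.8% of those of Hist1h3d. Hist1h3d (chr13:23575763-23577011, + strand) was 1.41, 2.16 and 2.47 FPKM with PBS and 1.43, 1.28 and 1.89 with GCA, with overlapping groups and an adjusted p of 0.311.

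Of 4 tested H4 genes, Hist1h4i (chr13:22040636-22041362, − strand) fell and was the member with the smallest p. It was 7.55, 7.50 and 7.48 FPKM with PBS and 6.32, 5.41 and 5.53 with GCA. PBS libraries were nearly equal, and all GCA libraries lay below them. The mean fell from 7.51 ± 0.032 to 5.75 ± 0.49 FPKM (SD, n = 3 each), a difference of −0.34 (SE 0.06, adjusted p = 0.00972, limma) on 69 to 100 fragments per library. The PBS libraries had 100, 99 and 97 fragments, closer together than counting so few would usually give. The SE and p rest in part on that small spread. The call stood whichever library was left out, but limma-voom on fragments gave an adjusted p of 0.0842. Only 2.1% of its windows occur in other genes. Hist1h4m (chr13:21811746-21812147, + strand) was 7.91, 6.03 and 6.56 FPKM with PBS and 3.34, 3.83 and 5.60 with GCA. The groups were apart, GCA replicate 3 being the nearest to PBS. The difference was −0.59 (95% interval −0.99 to −0.19), with an adjusted p of 0.0546 (limma). This was 0.00751 without GCA replicate 3 and 0.0382 with quantile normalization. With any other single library left out it was 0.0813 to 0.147, and with the replicate block 0.0914. Its sequence is nearly that of Hist1h4n, which holds 85.8% of its windows. Hist1h4h (chr13:23531050-23531519, + strand) was 3.85, 6.44 and 4.53 FPKM with PBS and 3.93, 3.40 and 2.17 with GCA (adjusted p = 0.166). Hist1h4k (chr13:21750194-21750505, − strand) was 1.58, 3.88 and 2.16 FPKM with PBS and 3.05, 2.56 and 3.27 with GCA (adjusted p = 0.582). Both had overlapping groups, with opposite directions of the mean. Windows shared with other H4 genes made up 28.0% for Hist1h4h and 53.4% for Hist1h4k.

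**Figure D2:**
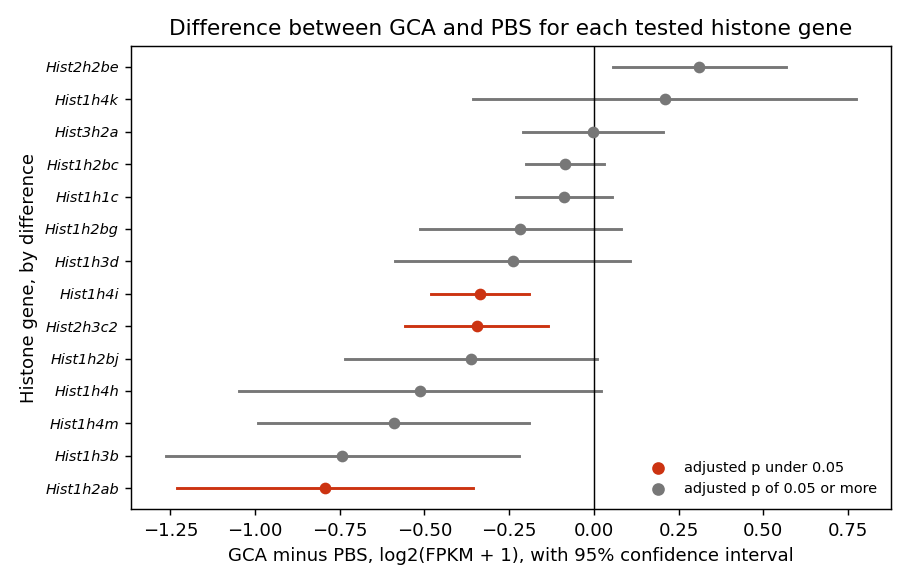
Difference between GCA and PBS on the log2(FPKM + 1) scale for each tested histone gene, as a point with its 95% interval. Red marks an adjusted p under 0.05, which Hist1h2ab (−0.79), Hist2h3c2 (−0.35) and Hist1h4i (−0.34) reached; 12 of the 14 points lie below 0.

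Below the filter were 37 members, with means of 0.023 to 0.924 FPKM. The mean with GCA was lower for 30 and higher for 7. Of the 29 at 0.1 to 1 FPKM, 25 were lower (86.2%), with a median GCA to PBS ratio of 0.67, beside 48.5% and 1.01 for all 6405 genes in that range. No overlap, with GCA below, was seen for 5 of them, Hist1h3c, Hist1h2be, Hist1h2bb, Hist1h3f and Hist1h2bl, and with GCA above for none; over all genes in that range the shares were 6.70% and 8.77%. Hist1h2bb, Hist1h3f and Hist1h2bl are named here after their values were seen. They rest on few fragments. Hist1h2bb had 3, 8 and 6 with PBS and 1, 1 and 3 with GCA, and its groups were 0.324 and 0.317 FPKM at the closest. Hist1h3f had 6, 9 and 13 fragments with PBS and 3, 2 and 4 with GCA. Hist1h2bl had 1, 2 and 3 with PBS and 0 in every GCA library.

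Of the low members, Hist1h3c, an H3 gene, was 0.871, 1.49 and 1.51 FPKM with PBS and 0.0889, 0.724 and 0.511 with GCA. Hist1h2be, an H2B gene, was 0.827, 0.979 and 1.02 with PBS and 0.655, 0.551 and 0.700 with GCA. It shares 496 bases of exon with Hist1h1e on the same strand. Hist1h4a, an H4 gene, was 1.63, 0.511 and 1.77 with PBS and 0.416, 0 and 0.896 with GCA, where PBS replicate 2 fell within the GCA range. Hist1h2ad was 0.384, 0.963 and 1.96 with PBS and 0.587, 0.897 and 0.750 with GCA, and Hist1h2ac 0.818, 0.910 and 0.904 with PBS and 0.767, 0.781 and 0.972 with GCA. These 2 H2A genes had overlapping groups.

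With limma-voom on recovered fragments and a filter of 0.1 FPKM, an alternative chosen after seeing the data, 43 members could be tested. Of these 3 fell and 0 rose, where 5.96% of 16494 genes fell and 8.97% rose. The 3 were Hist1h3b, Hist1h3c and Hist1h2ab, so only Hist1h2ab was called in both fits. Hist1h3c changed by −1.75 on the log2 scale (SE 0.56), at an adjusted p of 0.0340. Estimates were below 0 for 38 of the 43 (88.4%), against 48.6% of all genes, and the median was −0.48, against 0.01 for all genes. They were below 0 for 10 of 10 H3 genes, 9 of 10 H4, 5 of 5 H2A, 10 of 13 H2B and 4 of 5 H1. Among these, Hist1h3h and Hist3h2a were close to 0, at −0.004 and −0.007. Many members share sequence within their class, 90.5% of windows for Hist1h3h, so their estimates may not be independent.

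The summed level of all 51 members was 206, 210 and 218 FPKM with PBS and 186, 176 and 191 with GCA, a ratio of 0.872. Hist1h2bc and Hist1h1c made up 73.7% of all member FPKM, at means of 150.2 ± 6.15 FPKM with PBS and 141.4 ± 3.59 with GCA for the pair (SD, n = 3 each). The other 49 together gave 61.3, 61.0 and 60.9 FPKM with PBS and 42.2, 38.2 and 48.3 with GCA. PBS libraries were alike and every GCA library was lower, with means of 61.1 ± 0.21 and 42.9 ± 5.08 FPKM (SD, n = 3 each) and a ratio of 0.702. No test is given for a sum over chosen members.

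By class, the ratio was lowest for the 10 H3 genes, at 0.578. They summed to 15.4, 13.9 and 14.6 FPKM with PBS and 7.45, 7.24 and 10.7 with GCA. Hist1h3b alone averaged 6.83 FPKM with PBS and 3.74 with GCA, beside 14.63 and 8.46 for the whole class. The 8 H2A genes gave 5.78, 6.95 and 7.52 against 4.89, 3.61 and 4.57 (0.646), and the 12 H4 genes 24.8, 25.8 and 25.5 against 18.3, 17.0 and 18.8 (0.711). In these 3 classes the groups were apart. The 15 H2B genes other than Hist1h2bc gave 13.4, 12.8 and 11.0 against 9.86, 9.28 and 12.0 (0.837), and the 4 H1 genes other than Hist1h1c 2.02, 1.61 and 2.30 against 1.74, 1.07 and 2.20 (0.843), both with overlap. Differences between classes were not tested.

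**Figure D3:**
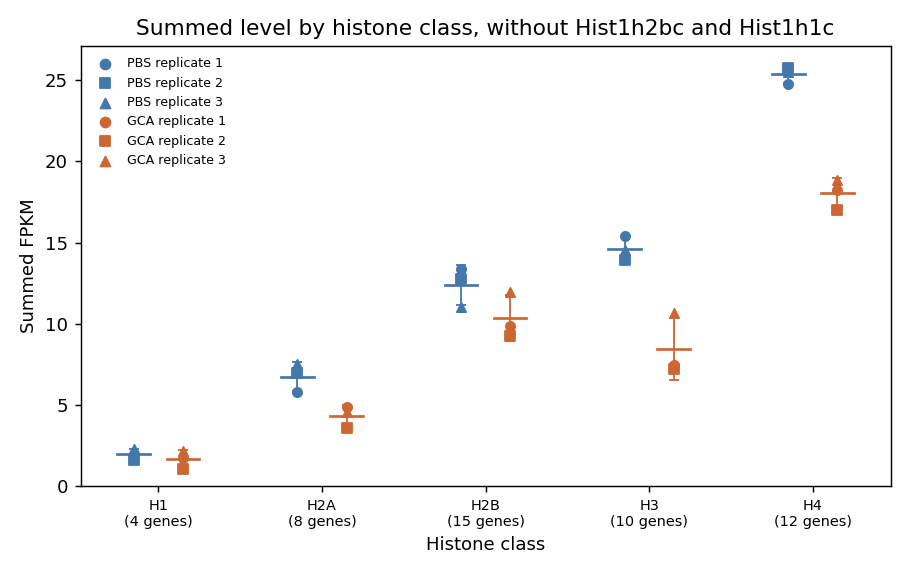
Summed FPKM of the listed genes of each histone class in each library, without Hist1h2bc and Hist1h1c; bars give the mean ± SD of 3 libraries, blue for PBS and orange for GCA. For H2A, H3 and H4 the orange points lie below all blue ones, and for H1 and H2B the groups overlap.

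Along chromosome 13, Hist1 members fall into 3 stretches, split where the starts of neighbouring members lie more than 200 kb apart. In the largest (chr13:23531050-23764406), 25 of 27 members had a lower mean with GCA. Without Hist1h2bc and Hist1h1c, that stretch summed to 32.0, 33.2 and 33.3 FPKM with PBS and 19.7, 19.4 and 22.4 with GCA, a ratio of 0.624. The stretch of 3 members at chr13:22035870-22043676, which holds Hist1h4i, had a ratio of 0.746, and the one of 15 members at chr13:21715763-21837530 had 0.764 with overlapping groups. The 3 Hist2 members summed to 3.38, 2.86 and 3.56 FPKM with PBS and 3.14, 2.67 and 3.38 with GCA, since Hist2h3c2 was lower and Hist2h2be higher. Head-to-head neighbours could differ widely in level: Hist1h2ac and Hist1h2bc start 251 bases apart and averaged 0.859 and 88.0 FPKM.

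Members were also grouped by annotated 3′ end. For 20 genes the transcript ended within 300 bases of the stem-loop, and these summed to 37.5, 36.4 and 35.1 FPKM with PBS and 20.3, 20.9 and 24.9 with GCA. All GCA sums were below all PBS sums, 22.0 ± 2.52 against 36.3 ± 1.19 FPKM (SD, n = 3 each), a ratio of 0.606. For the 16 genes with a longer tail, leaving out Hist1h1c, the sums were 17.7, 17.1 and 18.4 with PBS and 13.5, 12.3 and 14.1 with GCA (0.75). The 13 genes without the letters, leaving out Hist1h2bc, gave 6.09, 7.60 and 7.40 with PBS and 8.35, 5.08 and 9.24 with GCA. These groups overlapped, with a ratio of 1.075. Hist1h4k (2.54 FPKM with PBS, 2.96 with GCA) and Hist2h2be (1.16 and 1.69) had the highest means among them. Several have short annotated transcripts, 312 bases for Hist1h4k and 381 for Hist1h2bn and Hist1h2bl. Letters beyond an annotated end could not be found by the search. Ends at most 100 or 500 bases after the stem-loop gave ratios of 0.581 and 0.635. The 300-base limit was set after values were seen, so these sums are descriptions, with no test. Hist1h2bc, Hist1h4k and Hist2h2be were the tested members without the letters.

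**Figure D4:**
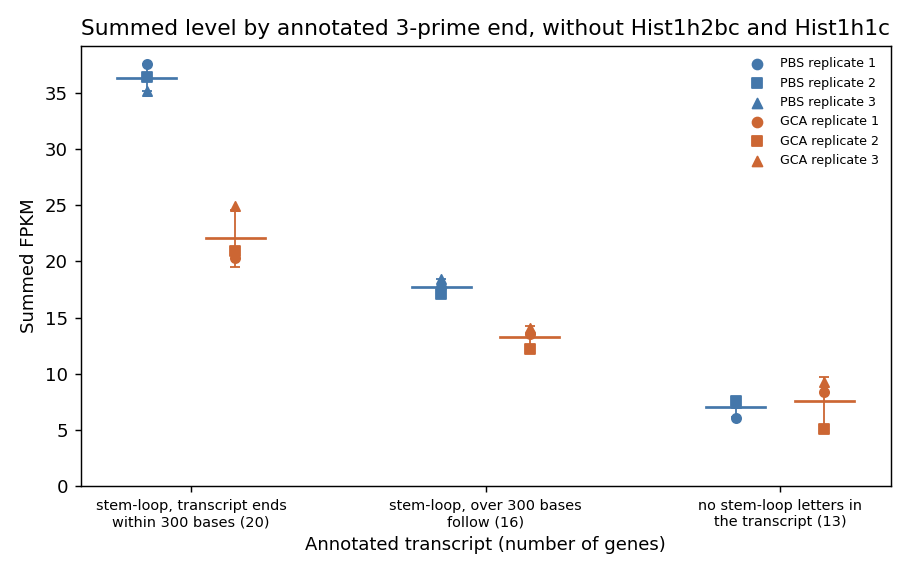
Summed FPKM in each library of members grouped by annotated transcript end, without Hist1h2bc and Hist1h1c; bars are mean ± SD of 3 libraries. Genes whose transcript ends within 300 bases of the stem-loop show the lowest ratio of GCA to PBS, 0.606, and those without the letters overlap between groups.

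Promoter sequences came from the RefSeq table for GRCm38.p6, covering 250 bases before to 50 after each start, and 46 of the 51 listed members matched by gene identifier. The letters TATAAA, on either strand, were in 28 of the 46 (60.9%), beside 14.2% of all 27025 promoters in the table. CCAAT, on either strand, was in 38 (82.6%) beside 37.9%. It was present in all 5 H1, 8 H2A, 14 H2B and 8 H3 promoters, but in 3 of 11 H4 promoters. ATTTGCAT, the octamer, was in 8 (17.4%) beside 1.8%, all of them H2A (4) or H2B (4). Each motif was searched separately, and a match is no evidence of binding. The promoters of 3 members follow, 5′ to 3′ on the gene's strand with these motifs in capitals: Hist1h2ab (chr13:23750838-23751137, +) and Hist1h4i (chr13:22041313-22041612, −), which both fell, and Hist1h1c (chr13:23738557-23738856, +), which did not pass the test.
Hist1h2ab: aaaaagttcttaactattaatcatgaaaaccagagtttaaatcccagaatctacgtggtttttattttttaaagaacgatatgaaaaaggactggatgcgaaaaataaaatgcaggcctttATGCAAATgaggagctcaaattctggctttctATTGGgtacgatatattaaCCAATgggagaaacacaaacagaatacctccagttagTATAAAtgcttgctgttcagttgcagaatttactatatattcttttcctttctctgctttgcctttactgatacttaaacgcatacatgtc
Hist1h4i: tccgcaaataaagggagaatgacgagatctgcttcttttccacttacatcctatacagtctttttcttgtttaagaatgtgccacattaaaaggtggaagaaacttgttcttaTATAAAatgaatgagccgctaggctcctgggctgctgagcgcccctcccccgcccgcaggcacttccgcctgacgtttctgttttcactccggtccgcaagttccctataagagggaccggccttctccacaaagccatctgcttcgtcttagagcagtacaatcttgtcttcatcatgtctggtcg
Hist1h1c: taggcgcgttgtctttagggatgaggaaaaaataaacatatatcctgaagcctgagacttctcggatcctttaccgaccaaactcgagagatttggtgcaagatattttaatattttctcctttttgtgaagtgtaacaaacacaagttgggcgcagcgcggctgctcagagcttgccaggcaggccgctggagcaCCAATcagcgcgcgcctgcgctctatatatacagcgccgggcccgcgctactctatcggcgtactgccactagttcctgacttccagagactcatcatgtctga
Hist1h2ab holds all 3 motifs, Hist1h4i TATAAA alone, and Hist1h1c CCAAT alone.

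Genes that act with the histones were taken from lists chosen with earlier results of these data known. Of 10 tested variant histones, 7 rose and 0 fell, beside the 11.5% of all genes that rose, with a median of 0.24. Only 1, H2afj, had an estimate below 0 (−0.274, limma adjusted p = 0.126). All its GCA values lay below all its PBS values. The replacement histone gene H3f3b rose from 124 ± 1.3 to 149 ± 12 FPKM, H2afv from 11.1 ± 0.52 to 14.5 ± 0.25, the linker gene H1f0 from 28.0 ± 0.97 to 35.3 ± 3.3, and the centromeric Cenpa from 2.49 ± 0.14 to 4.67 ± 0.52 (SD, n = 3 each; limma adjusted p 0.023, 0.00291, 0.0183 and 0.0013). H2afz, at 76.2 ± 5.8 and 86.2 ± 4.1 FPKM, had an adjusted p of 0.0999, or 0.0447 with limma-voom on fragments. With limma it was 0.045 with the replicate block, 0.129 with quantile normalization and 0.14 with median centring. Summed, the variants were 287.5 to 305.5 FPKM with PBS and 340.6 to 362.5 with GCA. For the 49 clustered genes other than Hist1h2bc and Hist1h1c the GCA sums lay below the PBS sums. The call of H3f3b was lost when any library but GCA replicate 2 was left out (adjusted p up to 0.0755), and that of H1f0 without PBS replicate 1 or 3 or GCA replicate 1 or 3 (up to 0.0664). With no filter, adjusted p was 0.0814 for H3f3b and 0.0759 for H1f0.

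None of 16 tested genes of histone mRNA transcription and 3′ processing was called with limma, where 17.9% of all genes were. An unadjusted p under 0.05 was found for 2 of the 16 (12.5%), beside 32.8% of all genes. Slbp, which binds the stem-loop, was 5.11 ± 0.50 FPKM with PBS and 5.24 ± 0.40 with GCA. Npat, a coactivator of histone gene transcription, was 5.20 ± 0.063 and 5.34 ± 0.28, and Lsm11, of the U7 snRNP, 1.30 ± 0.030 and 1.30 ± 0.023 (SD, n = 3 each). Lsm10, its partner, had the smallest p of the list, at 17.4 ± 0.71 and 19.8 ± 1.2 FPKM (adjusted p = 0.0715). The chaperones that carry histones had 5 of 23 tested genes higher and 0 lower, beside 11.5% and 6.43% of all genes, with a median of 0.11. Hat1, which acetylates new H4, rose from 8.76 ± 0.36 to 12.6 ± 0.42 FPKM, and Nasp, which holds H3 and H4, from 5.20 ± 0.12 to 6.60 ± 0.75 (SD, n = 3 each; limma adjusted p 0.00111 and 0.0348). The call of Nasp was lost when any library but GCA replicate 2 was left out, with an adjusted p of up to 0.0999, and with a filter of 0.1 FPKM (0.0649) or none (0.114).

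The DNA replication list had 22 of 31 tested genes higher and 0 lower, with a median of 0.29, and the mitosis list 19 of 20 higher and 0 lower, with a median of 0.56. Over all genes tested 11.5% were higher and 6.43% lower. Pcna, the sliding clamp of the replication fork, rose from 52.4 ± 3.4 to 67.0 ± 1.8 FPKM, and Mki67, a marker of cycling cells, from 9.37 ± 0.25 to 14.0 ± 0.54 (SD, n = 3 each; limma adjusted p 0.00547 and 0.000599). Among RNAs without a poly(A) tail, 5 of 11 were listed and 1 was tested: Rn7sk fell from 2.01 ± 0.45 to 1.06 ± 0.34 FPKM (SD, n = 3 each; adjusted p = 0.0451). That call was lost without PBS replicate 2 or 3 or GCA replicate 2 or 3 (adjusted p from 0.0806 to 0.137), with limma-voom on fragments (0.155), with a filter of 0.1 FPKM (0.0861) or none (0.144), with a pseudocount of 0.1 (0.0525) and without trend or robust moderation (0.0522). The other 4 listed RNAs of this kind lay below 1 FPKM and went both ways. Means with PBS and GCA were 0.521 and 0.641 FPKM for Rpph1 and 0.133 and 0.389 for Terc. They were 0.121 and 0 for Rnu12 and 0.133 and 0.043 for Scarna2. The sources used here do not say whether RNA was selected by its poly(A) tail. The part of such a step in the histone values was not tested.

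**Figure D5:**
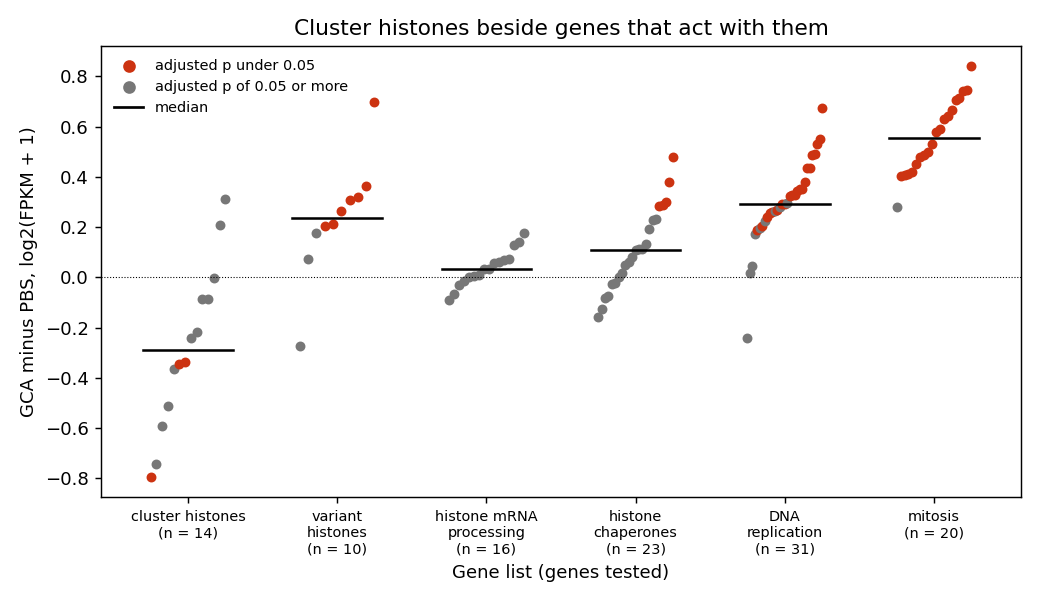
Difference between GCA and PBS on the log2(FPKM + 1) scale for each tested gene of the clustered histones and of 5 lists of related genes, sorted within each list; red marks an adjusted p under 0.05 and black lines are medians. The median is −0.29 for the clustered histones, 0.24 for variant histones, 0.03 for histone mRNA processing, 0.11 for chaperones, 0.29 for DNA replication and 0.56 for mitosis.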

How the data were processed

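RNA was sequenced as 150 bp paired-end reads from 3 PBS and 3 GCA libraries, and the authors deposited 1 value per Ensembl gene and library. The unit is not named per the labels or per the file headers. The deposited values were identified as FPKM: multiplied by GENCODE M21 exon lengths, 91.0% of 130293 matched values above 0 were whole fragments within 0.02, over 1 total per library. Alignment builds mm8 and mm9 and the tool Bowtie 0.12.2 are named, per the submitters' processing notes. The sources used here do not give the counting tool, annotation, strand setting or the handling of reads that match several genes. Coordinates are GENCODE M21 (GRCm38), attached by identifier to 27204 of 27263 genes, so the authors' alignment build may differ. Pseudogenes with such symbols (3) were left out.

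The main test was limma 3.58.1 (R 4.3.3), with trend and robust moderation, on log2(FPKM + 1), for genes averaging 1 FPKM or more, with treatment as the only term. It was two-sided and adjusted by Benjamini-Hochberg over 11984 genes, with a threshold of 0.05, and was tested on simulated data. Alternatives were the replicate block, quantile and median scaling, filters, pseudocounts, no moderation by trend, limma-voom on recovered fragments, protein-coding genes only, an adjusted p of 0.1 and leaving out each library. Named were all tested members, the 5 highest members below the filter and any called by limma-voom at 0.1 FPKM, up to 4 genes of each related list with the smallest p, and 7 genes fixed by name. The members and lists were chosen with earlier results of these data known. Tables and plots used Python 3.11.15, numpy 2.4.6, pandas 2.3.3 and matplotlib 3.10.9.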

Additional observations from a re-analysis of the deposited data

How the results depend on the processing

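The count of clustered histone genes called was 3. It was 5 with quantile normalization (all lower) and with protein-coding genes only (4 lower, and Hist2h2be higher), 6 at an adjusted p of 0.1 (5 lower, 1 higher), and 1 (Hist1h4i) with a filter of 0.1 FPKM or no filter. Leaving out a library gave 1 to 4, the lowest without PBS replicate 2. The replicate numbers did not pair the libraries by the rule used (same-number correlations 0.082, 0.029 and 0.068), although every library correlated best with its own number, a hint from the data only. With the replicate block 2 members were called, Hist1h4i and Hist2h3c2, and Hist1h2ab had an adjusted p of 0.0783. Over all genes 2151 were called, 2094 with the replicate block, 1075 with no filter, and 1232 to 2088 when a library was left out, the lowest without PBS replicate 3. Quantile normalization split the calls 1198 higher and 1027 lower, against 1380 and 771. The summed FPKM difference of −26.99 ranged from −30.52 to −22.59 with a library left out.

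Of 243 alternatives for single tested members, 210 kept direction and side of the threshold, 13 gained and 17 lost a call, and 3 changed sign: Hist3h2a ran from −0.074 to 0.05 over the fits that left out 1 library, and was above 0 (0.012, 0.012 and 0.05) in those lacking PBS replicate 1, GCA replicate 1 or GCA replicate 2. Of related genes, Npat ran from −0.001 (without GCA replicate 3) to 0.064, and Slbp from −0.014 (without GCA replicate 3) to 0.099, with −0.003 when PBS replicate 1 was left out. Lsm11 was −0.022 with quantile normalization, −0.008 with median centring, −0.006 when PBS replicate 3 was dropped and −0.002 when GCA replicate 2 was. The cause was not tested in any of these. Low depth limits the members under 1 FPKM, where a few fragments set each value.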
